A study of Mus musculus with 5 samples.

Results

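DNaseI hypersensitive sites (DHSs), which DNaseI-seq maps, are the short stretches of chromatin at which bound transcription factors leave the DNA open to the nuclease DNaseI. A total of 1555 merged regions carried a DHS in hematopoietic progenitors (HP) and in none of the other 4 populations, out of 68842 merged regions and out of 17730 regions open in HP. Members were chosen by the deposited lists themselves. Around the middle of every DHS a 500 bp window was drawn, windows sharing 125 bp or more were chained across stages into merged regions, and regions that held an HP window and no window of another stage were kept, without the mitochondrial chromosome. HP-only regions were thus 2.26% of all merged regions and 8.77% of the regions open in HP. That share, the number of members and their absence from the other lists follow from the rule and are no finding. Each of the 1555 members held 1 HP window.

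The cells came from embryonic stem (ES) cells of mouse strain 129 in which GFP reports Brachyury, a gene of early mesoderm, and were differentiated in vitro. Mesoderm (MES) was sorted as Bry.GFP+ and FLK1-, hemangioblasts (HB, the precursors of blood and endothelium) as Bry.GFP+ and FLK1+, hemogenic endothelium (HE, the endothelial cells from which blood emerges) as Bry.GFP+ and Tie2+/Ckit+/CD41-, HP as CD41+ and macrophages (MAC) as CD11b+. There was 1 list per stage, the MAC label names Rep1 and Rep2 together, and the cells are an ES model and not embryonic tissue. No difference between stages could therefore be set against a spread between replicates, no test was made, and all intervals below are 95% intervals (Wilson for a share, Newcombe for a difference of shares) that cover counting error only. The lists hold positions and no read counts, so depth cannot be read from them. The supplement of the study states that it gives numbers of aligned reads, which were not used here. A region outside a list was not called rather than shown to be closed. The HP list was the shortest, with 17734 sites, against 21949 in MES, 24729 in HB, 33305 in HE and 37456 in MAC.

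CD41 is the integrin alpha chain encoded by Itga2b. It appears on the first cells that leave the hemogenic endothelium and stays on megakaryocytes and platelets. Progenitors at this step can form primitive and definitive red cells, megakaryocytes and myeloid cells, and GATA, RUNX, ETS and E-box binding factors such as GATA1, RUNX1, PU.1 and TAL1 are the regulators best known for opening their enhancers. The promoters of the sorting markers fitted the labels in part. A DHS lay within 1 kb of the transcription start site (TSS) of Itga2b in HE and HP alone, of Itgam (which encodes CD11b) in MAC alone, of Tek (Tie2) in HE alone and of Brachyury (T) in MES and HB alone. Kit had a promoter DHS in every stage but MAC, and Kdr (FLK1) had one in all 5 stages, so these promoters do not set HP apart from every other stage. That of Itga2b was open in HE as well, although HE was sorted as CD41-, and neither it nor that of Kit sets HP apart from HE.

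To show what the open DNA looks like, 9 central stretches of 300 bp are given below, from the plus strand of mm10. The reference is not strain 129, so single bases may differ in these cells. The first 4 are those members more than 20 kb from coding starts that held most motif families in 300 bp, 5 of the 6 searched, taken in order of HP site width. They are followed by the widest such region of each of the 3 blood transcription factor genes that had one within 100 kb, Ikzf1, Runx1 and Zfpm1. The last 2, at the globin loci, were added after the gene counts below were seen. Each heading names the gene of the nearest coding start. Intron there means inside any curated transcript, which need not be one of that gene. Capitals mark matches on either strand to the consensus of GATA factors (AGATAA), RUNX (TGTGGT), ETS factors (AGGAAGT), the TAL1 E-box (CAGATG), MYB (TAACNG), AP1 (TGANTCA) and NF-E2 (TGANTCAGC).
Ikzf2 (intergenic, chr1:69496109-69496408): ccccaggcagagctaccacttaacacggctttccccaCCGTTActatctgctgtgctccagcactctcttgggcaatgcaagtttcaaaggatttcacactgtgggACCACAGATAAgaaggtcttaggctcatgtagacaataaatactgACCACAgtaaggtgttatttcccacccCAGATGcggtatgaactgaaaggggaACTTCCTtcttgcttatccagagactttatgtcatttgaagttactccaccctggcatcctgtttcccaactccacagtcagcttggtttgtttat
Otogl (intergenic, chr10:107932361-107932660): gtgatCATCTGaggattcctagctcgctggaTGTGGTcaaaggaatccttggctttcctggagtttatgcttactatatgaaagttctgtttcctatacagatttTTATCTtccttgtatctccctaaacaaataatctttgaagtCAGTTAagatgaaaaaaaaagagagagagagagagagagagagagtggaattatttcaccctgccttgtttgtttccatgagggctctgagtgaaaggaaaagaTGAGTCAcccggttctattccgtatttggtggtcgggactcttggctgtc
Igf2r (intron, chr17:12745842-12746141): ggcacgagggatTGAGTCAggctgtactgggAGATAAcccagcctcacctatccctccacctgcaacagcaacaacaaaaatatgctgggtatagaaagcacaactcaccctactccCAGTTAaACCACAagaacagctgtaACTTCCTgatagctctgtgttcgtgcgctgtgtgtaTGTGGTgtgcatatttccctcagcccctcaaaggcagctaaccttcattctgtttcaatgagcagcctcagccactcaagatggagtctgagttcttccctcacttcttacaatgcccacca
Cyp39a1 (intron, chr17:43699292-43699591): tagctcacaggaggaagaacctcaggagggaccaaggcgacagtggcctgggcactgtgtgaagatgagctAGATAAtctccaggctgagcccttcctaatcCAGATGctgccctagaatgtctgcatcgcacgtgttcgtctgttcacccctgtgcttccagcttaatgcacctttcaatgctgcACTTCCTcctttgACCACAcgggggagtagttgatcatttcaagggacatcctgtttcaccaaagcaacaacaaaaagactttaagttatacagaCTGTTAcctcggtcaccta
Ikzf1 (intron, chr11:11657164-11657463): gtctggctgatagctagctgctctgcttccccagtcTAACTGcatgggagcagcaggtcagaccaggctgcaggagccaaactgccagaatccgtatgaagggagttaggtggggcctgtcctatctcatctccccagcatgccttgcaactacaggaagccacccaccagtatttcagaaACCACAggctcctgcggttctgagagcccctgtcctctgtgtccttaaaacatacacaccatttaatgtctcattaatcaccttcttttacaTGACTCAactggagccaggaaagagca
Runx1 (intergenic, chr16:92904160-92904459): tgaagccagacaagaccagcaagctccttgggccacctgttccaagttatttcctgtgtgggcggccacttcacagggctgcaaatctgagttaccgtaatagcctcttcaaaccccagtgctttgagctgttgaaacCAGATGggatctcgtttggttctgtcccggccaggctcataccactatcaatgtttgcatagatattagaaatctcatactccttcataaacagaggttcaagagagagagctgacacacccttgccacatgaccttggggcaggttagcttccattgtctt
Zfpm1 (intron, chr8:122321693-122321992): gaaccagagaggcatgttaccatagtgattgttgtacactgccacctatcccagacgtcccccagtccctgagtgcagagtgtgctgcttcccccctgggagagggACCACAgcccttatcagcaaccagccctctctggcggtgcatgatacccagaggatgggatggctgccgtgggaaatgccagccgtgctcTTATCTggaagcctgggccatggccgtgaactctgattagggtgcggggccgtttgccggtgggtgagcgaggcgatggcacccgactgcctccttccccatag
Nprl3 (intron, chr11:32250864-32251163): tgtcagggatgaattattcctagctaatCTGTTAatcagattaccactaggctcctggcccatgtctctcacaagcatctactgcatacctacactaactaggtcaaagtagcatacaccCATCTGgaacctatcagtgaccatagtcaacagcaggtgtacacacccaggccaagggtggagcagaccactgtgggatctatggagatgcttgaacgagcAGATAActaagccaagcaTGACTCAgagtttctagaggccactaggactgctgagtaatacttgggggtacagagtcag
Hbb-y (intergenic, chr7:103865827-103866126): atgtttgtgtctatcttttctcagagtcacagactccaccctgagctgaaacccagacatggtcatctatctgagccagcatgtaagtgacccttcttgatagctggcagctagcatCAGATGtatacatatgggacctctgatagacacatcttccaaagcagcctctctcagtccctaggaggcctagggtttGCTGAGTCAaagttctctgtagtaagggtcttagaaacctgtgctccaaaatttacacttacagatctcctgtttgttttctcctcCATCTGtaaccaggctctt

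The first of these lies 189.7 kb downstream of the nearest coding start, that of Ikzf2, and a RUNX and a GATA match run together in it as one block of capitals. The Igf2r stretch carries 2 RUNX matches and 1 each for GATA, ETS, MYB and AP1. By contrast, the Runx1 stretch, 78.2 kb upstream of the nearest start of that gene, holds a single E-box and no GATA, RUNX or ETS match within 300 bp, while the 500 bp window used for the counts below also takes in a GATA, an AP1, a SOX and a FOX match. The Hbb-y stretch holds an AP1 match inside a full NF-E2 consensus, the site of the erythroid and megakaryocytic bZIP factor, between 2 E-boxes.

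HP-only sites were narrow. The HP site of a member had a median width of 500 bp, with quartiles of 400 and 700 bp and a range of 100 to 2000 bp. All other HP sites had a median of 900 bp and quartiles of 600 and 1100 bp. Of the members, 91.1% were narrower than the median of the HP list, against 44.6% of the other HP sites, and 68 members (4.37%) reached 1000 bp, against 46.2%. HP sites of the 1482 regions open in HE and HP only had a median of 600 bp, those of the 409 regions open in HP and MAC only 500 bp, and those of regions open in all 5 stages 1100 bp. The deposited sites are in steps of 100 bp, and width is the one property of a site that the lists hold.

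**Figure D1:**
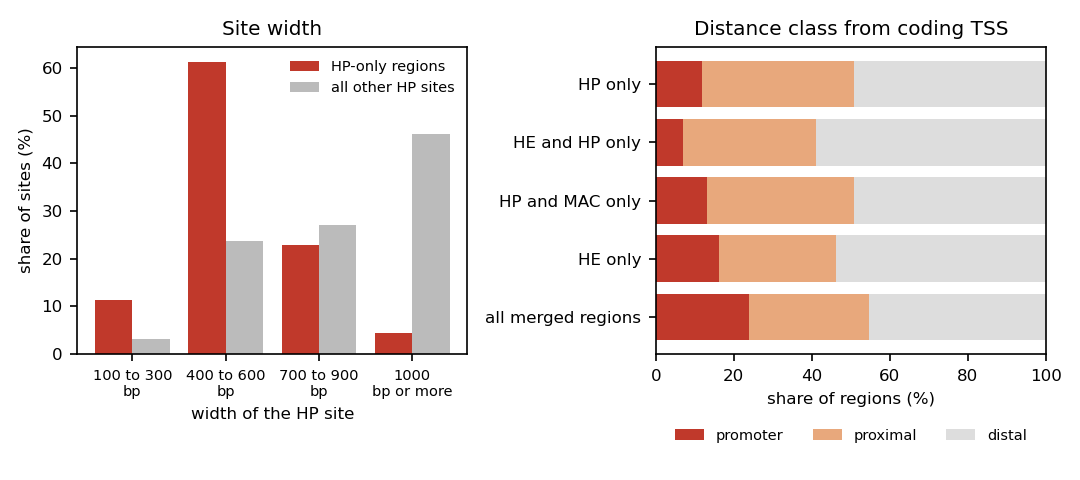
Left, share of HP sites (percent) in each class of site width for the 1555 HP-only regions (red) and all other HP sites (gray). Right, share of regions (percent) within 2 kb of a protein-coding TSS (promoter), up to 20 kb (proximal) and beyond (distal). The HP-only sites peak at 400 to 600 bp, with 61.3% there, and 11.8% of HP-only regions are promoters.

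Nearby chromatin was often open at other stages. The nearest site of any other stage had its middle at a median of 4.56 kb from the center of an HP-only region, with quartiles of 1.56 and 12.1 kb. The rule itself bars distances up to 375 bp. By stage, the median was 8.84 kb for HE, 10.5 kb for MAC, 13.7 kb for HB and 16.2 kb for MES. An HE site within 1 kb was found for 205 members (13.2%) and a MAC site for 81 (5.21%). The HE list covers 40.6 Mb and the MAC list 22.8 Mb, and these distances were not compared with those of other regions. At the other end, 31 members had no site of another stage within 100 kb. The next HP site lay at a median of 16.7 kb.

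**Figure D2:**
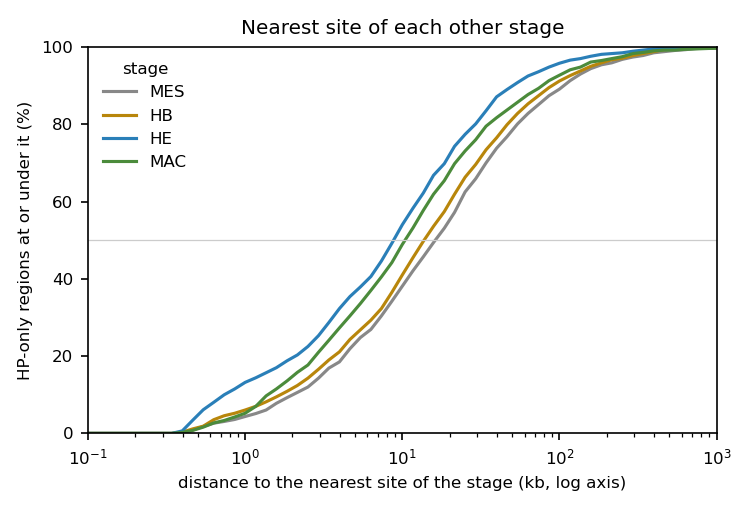
Share of the 1555 HP-only regions (percent) whose nearest site of MES, HB, HE or MAC lies at or under the distance on the x axis (kb, log axis, middle to center). The HE curve is leftmost and crosses 50% at 8.84 kb, and the MES curve crosses it at 16.2 kb.

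Because windows stand in for the deposited intervals, a member can still lie under a wide site of another stage. This was so for 240 members (15.4%), and the intervals were those of HE in 204 cases, of HB in 79, of MES in 49 and of MAC in 40. The remaining 1315 (84.6%) overlapped no deposited interval of another stage at all. Windows of 111 members overlapped a window of another stage by less than the minimum, by 122 bp at most. Just inside the threshold were 26 members with an overlap of 100 bp or more, and just outside it 27 regions of HP and another stage whose largest overlap was under 150 bp.

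HP-only regions lay in introns (49.8%, against 42.6% of all merged regions) and between genes (43.5%, against 44.7%), with 40 in coding exons, 55 in untranslated parts of exons and 9 in exons of non-coding RNAs. Promoters within 2 kb of a protein-coding TSS made up 11.8% (183 regions, interval 10.3 to 13.5), against 24.0% of all merged regions and 6.51% of MAC-only regions, proximal regions up to 20 kb 38.9% and distal regions 49.3%. Regions open in HE and HP only held fewer promoters, 7.09%, a difference of 4.68 percentage points (2.61 to 6.76), and more distal regions, 59.0%. HE-only regions held more promoters, 16.2% (difference -4.45, -6.10 to -2.63). The promoter share of regions open in HP and MAC only, 13.2%, could not be told from that of HP-only regions (difference -1.43, -5.36 to 1.96). CpG-rich centers (GC share from 0.5 up, observed over expected CpG from 0.6 up) made up 3.99% of HP-only regions and 18.2% of all merged regions. Their 2.77% in HE and HP only regions could not be told from the share in HP-only regions (difference 1.22, -0.0750 to 2.53). They made up 6.60% of HP and MAC only, 8.47% of HE-only and 0.884% of MAC-only regions. The promoter share of HP-only regions depended on the definitions. It was 7.72% with a reach of 1 kb, 21.2% with a reach of 5 kb and also 21.2% with the TSS of all annotated transcripts. When only sites no narrower than their list's median were chained, 320 regions were HP-only, with a share of 21.9% (17.7 to 26.7). These 320 were not a subset of the members, of which 91.1% were narrower than the median of the HP list. The 24.0% of all merged regions was not recomputed in these ways.

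The promoter members differed from the others in how alone they stood. Of the 183 promoter regions, 85 (46.4%) lay under a deposited interval of another stage, against 155 of 1372 (11.3%) beyond 2 kb. Once those are removed, the promoter share is 7.45%, which could no longer be told from the 7.09% of HE and HP only regions (difference 0.367, -1.56 to 2.32), although that set was not filtered in the same way. The 10 promoter regions with the widest HP sites show this. Those at Nek8 (2000 bp), Trappc3 (1900 bp) and Mrpl53 (1500 bp), genes of a kinase of the cilium, of vesicle transport and of the mitochondrial ribosome, lay under intervals of all 4 other stages. Gnas (1600 bp), Ssbp3 (1400 bp) and Acot7 (1200 bp) lay under intervals of 3 other stages each, Rab3il1 (1400 bp) of HB and HE, Arhgdib (1300 bp) of HE, and Atp2a3 (1200 bp), a calcium pump, of HB. Only the promoter of Slc14a1 (1300 bp), the urea transporter of the red cell membrane, was clear of them all.

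Beyond promoters, the widest HP sites were of both kinds too. The region 23.3 kb upstream of Nsd2, a histone methyltransferase gene (chr5:33819593-33820092, 1700 bp), lay under intervals of all 4 other stages, and that in the intergenic DNA near Slc35e3 (1500 bp) under one of MAC. The regions 6.43 kb upstream of Ccdc141 (1500 bp), in an intron of Gtpbp1 (1400 bp), 26.2 kb upstream of Pkp1 (1300 bp) and 7.14 kb upstream of Spns2 (1200 bp) overlapped no interval of another stage. All but that at Pkp1 held a GATA match. The other 4 of the 10 widest, nearest to Clic4, Egr1, Rgs10 and Sfi1, were under intervals of at least 1 other stage.

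To ask which factors could read these regions, the middle 500 bp of the 1372 HP-only regions that lie beyond 2 kb from coding starts was read on both strands for 20 fixed consensus motifs. Matches say that the letters are present and not that a factor was bound. GATA and RUNX matches were frequent. A GATA consensus was present in 44.5% of HP-only regions (interval 41.9 to 47.2), against 27.3% of all merged regions over 2 kb from a TSS, and a RUNX consensus in 48.7% (46.1 to 51.3), against 37.3%. The same letters read in reversed order, a control of equal base composition, gave 16.5% and 30.0% in the HP-only regions. One or both were present in 965 of 1372 regions (70.3%), against 54.4% of all merged regions, 74.2% (71.8 to 76.5) of regions open in HE and HP only and 67.9% (62.9 to 72.5) of regions open in HP and MAC only.

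Set beside the neighbors in the pathway, each motif had its own order. GATA was in 49.2% of regions open in HE and HP only, more than in HP-only regions (difference -4.70, -8.42 to -0.973), in 34.5% of HE-only regions (difference 10.0, 7.27 to 12.8) and in 26.8% of regions open in HP and MAC only (difference 17.8, 12.3 to 22.9). RUNX was in 34.1% of HE-only regions (difference 14.6, 11.8 to 17.4) and in 41.6% of MAC-only regions (difference 7.13, 4.41 to 9.87). Its shares of 47.1% in regions of HE and HP only and 53.8% in regions of HP and MAC only could not be told from that of HP-only regions (differences 1.63, -2.10 to 5.36, and -5.11, -10.9 to 0.718).

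A composite of an E-box and a GATA site, CTG followed by GATA after 7 or 8 bases, is the form at which TAL1 and GATA1 meet on DNA. It was present in 19.8% of HP-only regions and in 11.3% of all merged regions. That share was above those of HE-only regions (14.2%, difference 5.55, 3.41 to 7.84) and of HP and MAC only regions (11.5%, difference 8.20, 3.95 to 11.9) and could not be told from that of HE and HP only regions (20.3%, difference -0.582, -3.57 to 2.41). Some of these matches overlap the GATA consensus. The TAL1 E-box alone was in 39.3%, against 37.3% of all regions, and differed from none of the 3 sets beyond counting error.

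Fewer HP-only regions held an ETS consensus. It was in 17.0% of them (15.1 to 19.1), against 26.1% of all merged regions, 26.0% of HE and HP only regions (difference -9.02, -12.1 to -5.95), 31.0% of HP and MAC only regions (difference -14.0, -19.3 to -8.97) and 27.0% of HE-only regions (difference -10.0, -12.1 to -7.75). The PU.1 form (GAGGAAGT), which contains the ETS letters, was in 4.37%, against 9.47% of all regions and 11.5% of regions that HP shares with MAC, the stage in which PU.1 is the leading regulator.

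TEAD (CATTCC), SOX (CATTGT) and AP1 matches were also fewer than where HE and HP were both open. TEAD, whose factors act with YAP, was in 31.6%, against 29.3% of all merged regions and 41.0% of HE and HP only regions (difference -9.40, -13.0 to -5.81). It was in 34.2% of HE-only regions (difference -2.68, -5.26 to -0.00300) and 23.5% of MAC-only regions (difference 8.06, 5.58 to 10.6). The 27.0% of HP and MAC only regions could not be told from the share in HP-only regions (difference 4.52, -0.894 to 9.54). When only sites no narrower than their list's median were chained, TEAD was in 20.4% (15.9 to 25.8) of the regions then HP-only. The share in all merged regions was not recomputed from these sites. SOX was in 18.4%, against 25.2% of all, 29.2% of HE and HP only regions (difference -10.8, -13.9 to -7.58) and 33.6% of HE-only regions (difference -15.2, -17.4 to -12.9). Its share in regions shared with MAC was 18.3%. AP1 was in 23.6%, against 27.2% of all, 32.0% of HE and HP only regions and 38.3% of HP and MAC only regions (difference -14.7, -20.3 to -9.27). Its 24.7% in HE-only regions could not be told from the share in HP-only regions (difference -1.06, -3.40 to 1.41).

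KLF and NF-E2 are rarer motifs read by erythroid factors. The KLF consensus (CCACACCC), read by the erythroid factor KLF1, was in 7.73% (6.43 to 9.26), against 4.92% of all merged regions, 5.16% of HE and HP only regions (difference 2.57, 0.734 to 4.43) and 4.29% of HE-only regions (difference 3.44, 2.07 to 5.02). Its share in HP and MAC only regions, 6.76%, could not be told from it (difference 0.965, -2.40 to 3.63). NF-E2, whose letters contain those of AP1, was in 7.14%, against 5.63% of all and 5.11% of HE-only regions (difference 2.03, 0.708 to 3.58). It was more frequent in HP and MAC only regions, 11.5% (difference -4.41, -8.35 to -1.13), and could not be told apart in HE and HP only regions, 8.21% (difference -1.06, -3.07 to 0.935). The CTCF consensus, searched by name, was in 3.94%, against 3.61% of all, 1.31% of HE and HP only regions (difference 2.63, 1.45 to 3.89), 1.54% of HE-only regions and 7.61% of HP and MAC only regions. CTCF organizes chromatin loops.

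The remaining 8 motifs fell into 2 groups. CEBP (TTGCNNAA) was in 18.4% of HP-only regions, against 22.8% of all merged regions, the octamer (ATGCAAAT) in 1.31%, against 2.68%, GFI1 (AATCACNGC) in 0.729%, against 1.35%, and the interferon response element, GAAA repeated after 2 bases, in 4.96%, against 6.68%. These 4 were lower than in all other merged regions beyond counting error, CEBP by the widest margin (difference -4.54, -6.53 to -2.37). None of the 4 could be told from HE and HP only regions, where CEBP was in 16.6% (difference 1.74, -1.11 to 4.58), and CEBP was in 30.4% of MAC-only regions. MYB in 42.6% (all regions 41.4%), MEIS (TGACAG) in 39.0% (38.6%), FOX (TGTTTAC) in 6.92% (7.53%) and T-box (GGTGTGA) in 7.80% (8.68%) could not be told from all other merged regions. MYB was as frequent with its letters reversed, 43.7%. Reversed letters gave more than the forward ones for FOX (9.26%), T-box (12.0%) and the interferon response element (5.61%, against 6.67% of all merged regions). For CEBP, the octamer, GFI1 and MEIS they gave less.

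**Figure D3:**
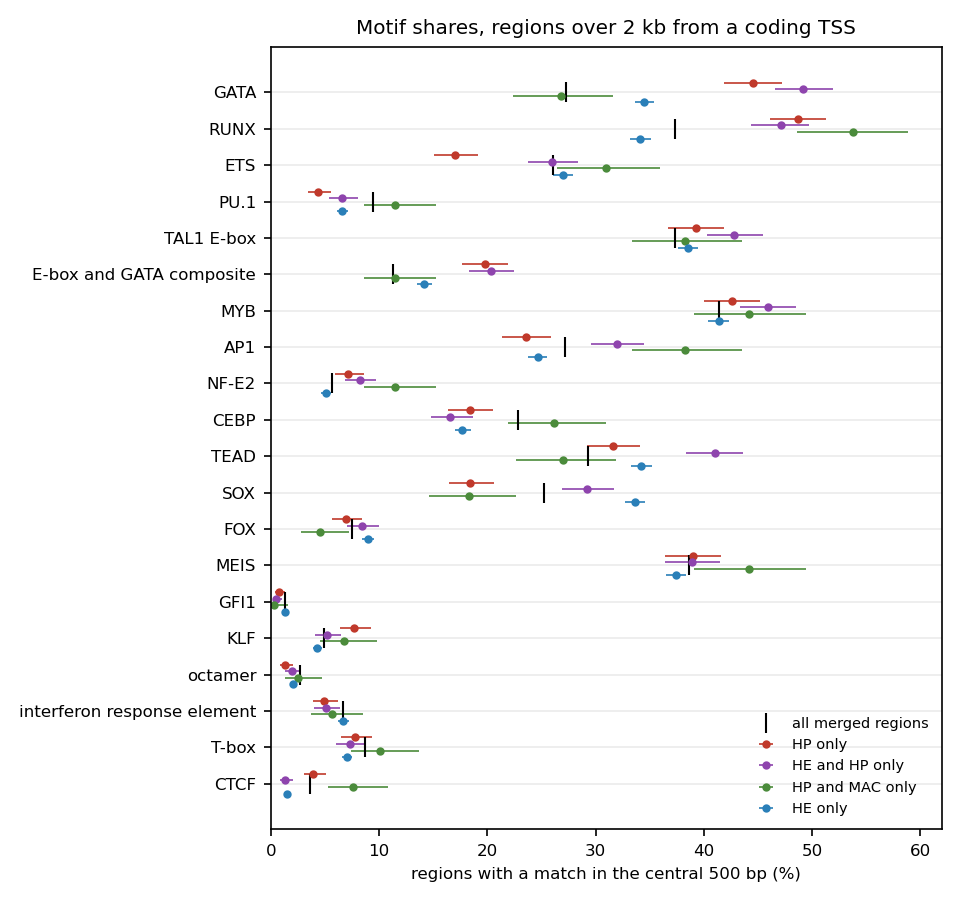
Share of regions beyond promoters (percent) with a match in the central 500 bp for each of 20 motifs. Points are sets of regions with 95% Wilson intervals, black ticks all merged regions. HP-only regions (red) lie right of the tick for GATA (44.5% against 27.3%) and RUNX (48.7% against 37.3%) and left of it for ETS (17.0% against 26.1%) and SOX (18.4% against 25.2%).

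Where a match lay within the region was measured apart from these shares. GATA matches occurred at 1.57 per kb within 100 bp of the center and at 0.541 per kb at 400 to 1000 bp from it in the same regions, a ratio of 2.91, while the reversed letters gave a ratio of 0.623. The ratio was 2.04 for RUNX, 2.32 for AP1, 2.38 for KLF, 2.23 for the composite, 4.78 for NF-E2 (63 matches near the center) and 24.0 for CTCF (36 matches near the center and 9 in the far wider flanks). It was smaller for TEAD, 1.60, ETS, 1.54, and the TAL1 E-box, 1.34. With the letters reversed, the ratio was 1.05 for RUNX, 1.14 for TEAD and 1.39 for KLF, and reversed NF-E2 letters were rare, at 0.00729 per kb near the center and 0.00486 per kb in the flanks, so also denser near the center. It was under 1 for AP1, the composite, ETS and the E-box. Matches of SOX (0.768) and CEBP (0.979) were no denser at the center than outside. Centers are middles of called sites and not summits.

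**Figure D4:**
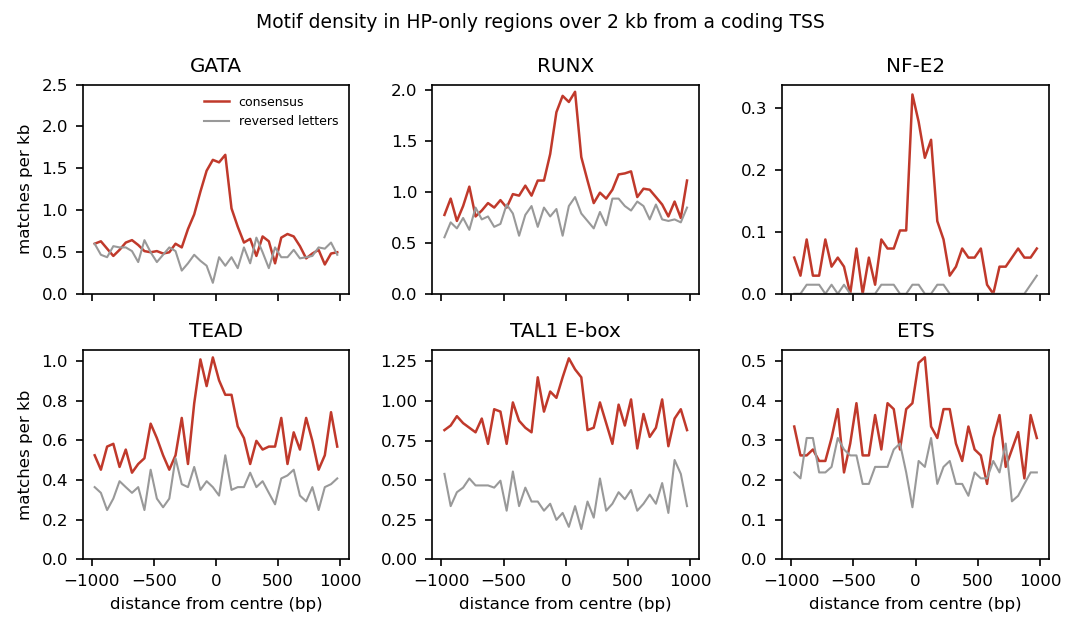
Matches per kb in bins of 50 bp against the distance (bp) from the center of the 1372 HP-only regions over 2 kb from a TSS, for 6 motifs (red) and the same letters reversed (gray). GATA, RUNX and NF-E2 peak at the center, and the ETS and E-box curves stand little above their flanks.

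Pairs of motifs stood close to the product of their separate shares. GATA and RUNX were both present in 314 regions (22.9%, 20.7 to 25.2), and the product of their separate shares is 21.7%. For GATA and the E-box, 18.1% held both, against a product of 17.5%, and for GATA and TEAD 13.0% against 14.1%. Of 6 families (GATA, RUNX, ETS, TAL1 E-box, MYB and AP1), 1 region held all, 33 held 5, 428 held 2 and 98 (7.14%) held none. Among the HE and HP only regions 3.63% held none.

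Wider and narrower sites differed in their letters. GATA was in 53.0% of the 362 regions with a site of 700 bp or more (47.9 to 58.1) and in 41.5% of the 482 with a site of 400 bp or less (37.2 to 45.9). TEAD went the other way, with 25.7% in the widest class and 34.6% in the narrowest (30.5 to 39.0), as did CTCF, with 1.10% and 6.02%. RUNX was at 51.4% and 50.6%. The central window is of the same length in all classes.

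To relate HP-only regions to genes, each was assigned to the nearest protein-coding TSS within 100 kb. This gave 1365 regions a gene and left 190 without one. They fell on 1222 of 21000 genes, or 5.82%, and were thinly spread, with 1097 genes nearest to 1 region, 107 to 2 and 18 to 3. No gene had more. The 10 genes with 3 regions and the largest summed site width were Mep1b, Prkca, Col4a2, Brpf3, Nrip3, Smox, Stard13, Cryba4, Nprl3 and Cmip. Prkca, the gene of protein kinase C alpha, had 3 of its 9 regions in this class, all intronic, at 24.5, 80.0 and 97.4 kb from the TSS. Col4a2, a basement membrane collagen gene, had 3 of 15, of which 2 lay under HE intervals, and Cmip had 3 of 30. Nearest genes are a matter of position, and no target is shown by it.

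Of the 10 gene lists, that of erythroid genes had the largest share of members. Of 27 listed genes with an annotated TSS, 13 (48.1%) were nearest to an HP-only region, against the 5.82% of all genes. They had 13 HP-only regions among the 76 merged regions assigned to them, 17.1% (10.3 to 27.1), against 2.29% over all genes. Among the 33 of these regions that were open in HP, 39.4% were HP-only (24.7 to 56.3), against 8.14%. Of the 13 regions, 6 were promoters, against 11.8% of all HP-only regions. With 12 clear of the intervals of other stages and 5 holding a GATA match, they stood near the 84.6% and 43.2% of all HP-only regions.

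Members stood at both globin loci. The alpha-globin enhancers of the mouse lie in introns of the neighboring gene Nprl3, and 5 HP-only regions with gaps of at most 25 kb stood there, the largest such chain among the 1555 (chr11:32245714-32276813). Among them, 3 were intronic in Nprl3, at chr11:32250764-32251263, chr11:32255964-32256463 and chr11:32264964-32265463, and each of the 3 held a GATA match. The others were a region nearest to Mpg and the promoter of Hba-x, the embryonic alpha-type globin gene (chr11:32276314-32276813, HP site of 800 bp). At the beta-globin locus, 1 HP-only region lay 12.8 kb upstream of Hbb-y, the embryonic beta-type gene, on the side of the locus control region (chr7:103865727-103866226). It held RUNX, E-box, AP1 and NF-E2 matches and no GATA match in 500 bp.

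The list had members elsewhere too. Promoter regions stood at Slc4a1 (the anion exchanger band 3, chr11:102363614-102364113), Epb41 (protein 4.1, chr4:132076815-132077314, under an HE interval), Trim10 (chr17:36869292-36869791) and Hemgn (chr4:46403915-46404414). Farther regions stood 37.4 kb into Ank1 (ankyrin), 36.6 kb into Sptb (beta spectrin), 3.35 kb into Fech (the last enzyme of heme synthesis), 7.14 kb upstream of Car2 (carbonic anhydrase) and 28.2 kb upstream of Bpgm. A promoter DHS was listed for 55.6% of the 27 genes in HP, against 49.0% of all protein-coding genes, for 40.7% in HE, against 60.3%, and for 25.9% in MAC, against 48.6%. The HP share includes promoter members. In a list from a bulk population, a site open in a few committed CD41+ cells and a site weakly open in all of them cannot be told apart.

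Megakaryocyte and platelet genes came next. Of 26, 6 (23.1%) had at least 1 HP-only region, and 8 of their 100 regions were HP-only (interval 4.11 to 15.0%), against 2.29% over all genes. Among the 42 of these regions that were open in HP, 19.0% were HP-only (9.98 to 33.3), against 8.14%. When any region within 50 kb of a TSS was counted, the list stayed at 6 genes while the share of all genes rose from 5.82% to 11.0%. Another 9 of the 100 were open in HE and HP only, against 2.07% over all genes. Gp9, a subunit of the von Willebrand factor receptor, had 2, at 14.4 and 1.96 kb upstream, and both held GATA. Rab27b, which acts in granule release, had 2 as well. Tubb1, the platelet beta tubulin gene, had its promoter (chr2:174450320-174450819), Vwf an intronic region 12.2 kb into the gene with GATA, RUNX and composite matches (chr6:125564857-125565356), and Lat a region 21.0 kb downstream of its start with GATA and ETS matches. The sorting marker gene Itga2b had 1, in a coding exon 9.12 kb from the TSS (chr11:102460514-102461013), with a TEAD match and no GATA or RUNX match.

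Among 34 blood transcription factor genes, 6 (17.6%) had 9 HP-only regions of 319, a share of 2.82% (1.49 to 5.27) that could not be told from the 2.29% over all genes. Runx1, the factor required for the step from HE to HP, had an intronic region 7.11 kb into the gene (chr16:92818710-92819209) with GATA, RUNX and PU.1 matches and the region 78.2 kb upstream shown above, with GATA and E-box matches in 500 bp. Runx3 had a promoter region (chr4:135120165-135120664) and an intronic one 15.3 kb in, with GATA, RUNX, composite and KLF matches. Ikzf1, the gene of the lymphoid regulator Ikaros, had a promoter region and one 28.6 kb upstream, Gata2 a region 6.83 kb upstream with none of the 20 motifs (chr6:88186807-88187306), Ikzf2 one 3.15 kb upstream, and Zfpm1, the gene of the GATA1 cofactor FOG1, one 39.7 kb into the gene that lay under HB and HE intervals. Near Tal1 the sole member within 100 kb was 46.1 kb from its TSS and nearer to Pdzk1ip1 (chr4:115103615-115104114), with AP1 and NF-E2 matches. Spi1, which encodes PU.1, had none.

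Members near the genes of other lineages were few in number. Endothelial genes had 0 of 171 regions, which allows a share of up to 2.20% (upper Wilson limit). Only 35 of the 171 were open in HP, and 0 of 35 allows up to 9.89%, a range that holds the 8.14% over all genes. A total of 14 of the 171 (8.19%, against 2.07% over all genes) were open in HE and HP only. Progenitor surface and cytokine receptor genes had 1 of 144, at Cd47, and mesoderm, heart and smooth muscle genes 1 of 147, at Pdgfrb. Macrophage genes had 2 of 152, at Ctss and Fcgr1, lymphoid genes 1 of 82, at Tcf7, and mast cell and granulocyte genes 1 of 48, at Prtn3, the proteinase 3 gene. The genes of the 6 sorting markers had the 1 region at Itga2b among 53. Apart from the endothelial list, these shares ran from 0.680% to 2.08%, and the interval of each held the 2.29% over all genes.

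**Figure D5:**
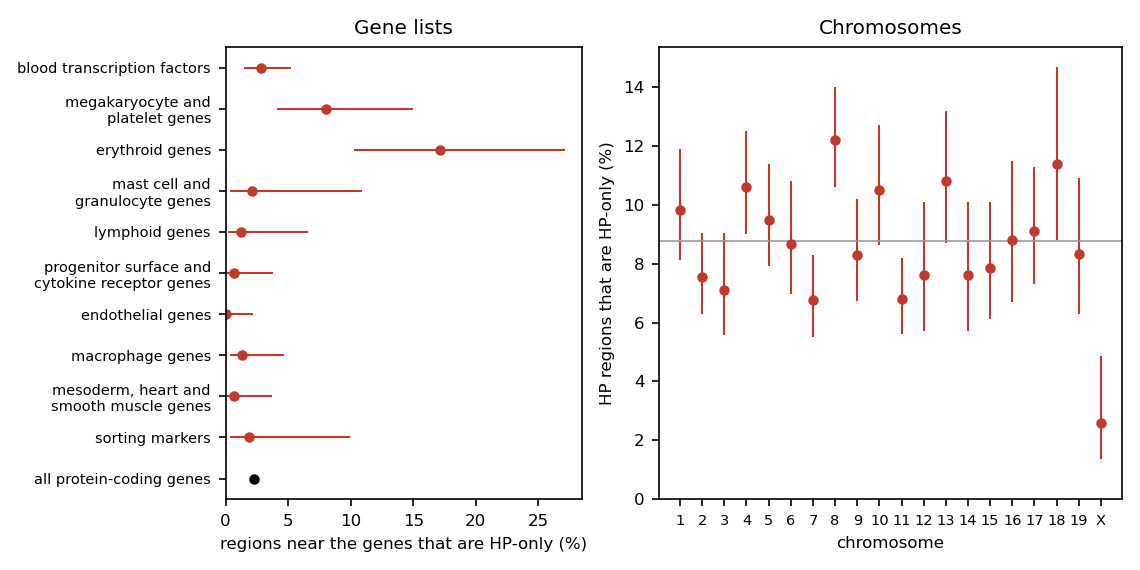
Left, share of the merged regions assigned to the genes of each list that are HP-only (percent, points with 95% Wilson intervals, all protein-coding genes in black). Right, share of the regions open in HP that are HP-only on each chromosome (percent, with intervals, the gray line is 8.77%). Erythroid genes stand at 17.1% and endothelial genes at 0%. Chromosome 8 stands at 12.2% and chromosome X at 2.59%.

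Genes nearest to an HP-only region beyond promoters had a promoter DHS more often than all protein-coding genes in each stage taken by itself. Of 1066 such genes, 68.6% had one in HP (65.7 to 71.3), 80.9% in HE, 76.4% in HB, 74.6% in MES and 65.7% in MAC, against 49.0%, 60.3%, 57.6%, 56.0% and 48.6% of all. Genes nearest to regions of the most similar sets also stood above all genes. Among 1013 genes nearest to regions of HE and HP only, 61.3% (58.3 to 64.3) had an HP promoter DHS, and among 305 nearest to regions of HP and MAC only 65.9% (60.4 to 71.0). An HE promoter DHS was listed for 78.5% and 81.6% of these, and a MAC promoter DHS for 60.6% and 70.8%.

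HP-only regions were spread unevenly over the chromosomes. Chromosome 8 held 174 of them, 11.2% (9.72 to 12.9), against 7.73% of the other regions open in HP (difference 3.46 points, 1.93 to 5.17), 7.34% of all merged regions and 4.67% of protein-coding TSS. Within chromosome 8, 79 of the 174 lay in the last of 4 equal stretches, as did 449 of the 1250 other HP regions. Chromosome X held 9, 0.579%, against 2.09% of the other regions open in HP (difference -1.51, -1.87 to -0.953). On the remaining autosomes the share of HP regions that were HP-only ran from 6.76% on chromosome 7 to 11.4% on chromosome 18. On chromosome 8 the GATA share was 33.3% (26.5 to 40.9) and on the other chromosomes 46.0% (43.2 to 48.8). Chromosome copy number in these cells was not analysed here.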

How the data were processed

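DNaseI-seq of 1 sample per stage was analysed from 5 lists of DHSs. According to the methods of the study and the submitters' processing notes, the authors trimmed reads with CutAdapt, aligned them to mm10 (GRCm38) with Bowtie and called DHSs with DFilter in bins of 100 bp; HOMER is also named, and versions are not given in the sources used here. Deposited were positions of the start and end of each site in bp, with no score or read count. From them, windows of 500 bp were chained at an overlap of at least 125 bp. The 4 HP sites on the mitochondrial chromosome were left out. Genes, TSS (curated mRNAs) and sequence came from RefSeq on GRCm38.p6, whose chromosomes are those of mm10. Consensus motifs were exact letter matches, so position weight matrices as used in the study were not rebuilt. Python 3.11.15, NumPy 2.4.6 and pysam 0.24.0 were used, and merging and motif counts were checked on simulated lists and sequences. Members and gene lists were chosen with earlier results of these data known, so no list is independent evidence.

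Genes were named by rule: the 10 with most HP-only regions (ties by summed width of the HP sites), the 10 widest promoter and 10 widest other members, listed genes nearest to a member, and members within 100 kb of Tal1, Runx1, Spi1 and Itga2b. A few of the genes so named are not reported here. Of the listed genes, Ahsp had no entry in the coding TSS table. Alternatives varied the merging, the lists, site width, promoter reach, TSS set, motif window and gene reach.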

Additional observations from a re-analysis of the deposited data

How the results depend on the processing

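With 1 list per stage these values have no replicate check. No paired analysis was possible because each stage has 1 list. The main count was 1555 members, the promoter share 11.8%, and the GATA, RUNX and TEAD shares 44.5%, 48.7% and 31.6%. Chaining at 250 bp gave a promoter share of 14.4%, at 1 bp 10.0%, and deposited intervals chained at 1 bp, or members clear of every deposited interval of another stage, 7.45% each. A reach of 1 kb gave 7.72%, one of 5 kb 21.2% and the TSS of all annotated transcripts 21.2%, of which 207 of 329 regions were shared. Keeping only sites no narrower than their list's median gave 320 regions, which were not a subset of the 1555. Their promoter share was 21.9%, GATA 54.4%, RUNX 51.6% and TEAD 20.4%. Keeping the widest sites up to the length of the shortest list gave 3238 regions, GATA 40.1% and RUNX 45.8%. Leaving out the HE list gave 3095 regions, a promoter share of 9.89% and TEAD 36.2%, and leaving out the MAC list GATA 40.6%. In the central 200 bp the shares were GATA 26.7%, RUNX 29.3% and TEAD 15.7%, without soft-masked matches GATA 41.5% and RUNX 44.4%, and with reversed letters 16.5%, 30.0% and 17.1%. With any region within 50 kb of a TSS counted, listed genes with a member rose to 10 blood transcription factors, 3 mast cell and granulocyte, 2 lymphoid, 4 macrophage and 2 mesoderm, heart and smooth muscle genes and erythroid genes to 19 of 27, the megakaryocyte list stayed at 6 of 26, and all genes rose from 5.82% to 11.0%. With the nearest TSS within 50 kb, the progenitor surface list fell to 0. The causes were not tested. Leaving out chromosome 8, an alternative chosen after seeing the data, moved none of the 5 values past its interval or by over 1.5 times. Depth was not analysed and sets no floor here.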

Other observations

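The HP list was the only one of the 5 with sites on the mitochondrial chromosome, where it held 4 and the MES, HB, HE and MAC lists 0 each. The 9 chains of 3 or more HP-only regions with gaps of at most 25 kb held 29 regions in all, and 3 of these chains were on chromosome 8, nearest to Drc7, to Bco1 and Pkd1l2, and to Rab4a and Rhou. Of regions open in 1 other stage alone, chromosome 8 held 9.74% for MES, 7.89% for HB, 6.53% for HE and 6.69% for MAC, against 11.2% for HP.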
